A study of Oryza sativa Japonica Group with 30 samples.

Results

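Among 16886 genomic intervals with SNAC1 ChIP-Seq signal in the table that pairs SNAC1-N with ZH11-N, 133 (0.788%) were selected on their measured values. An interval was taken when all 3 SNAC1-N libraries lay above the lowest value of their own column and at least 2 of the 3 ZH11-N libraries lay exactly at theirs. That lowest value, called the floor here, stands for a count of 1 in every library, so an interval at the floor has at most 1 counted read. Whether input reads were subtracted is not known, so a count of 1 need not mean 1 read in the raw data. Reads given below are such counts. Since these values chose the intervals, they are given as a description and without a test. The intervals had been named as detected only in the overexpressor, and the values went against that name for most of them. Only 5 of the 133 intervals were at the floor in all 3 ZH11-N libraries, and 128 (96.2%) had 1 ZH11-N library above it. They are called SNAC1-N intervals with a ZH11-N floor below.

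SNAC1-N stands for OE-19 under normal watering, an overexpression line of the rice variety Zhonghua 11 (ZH11) that carries the SNAC1 coding sequence behind a maize ubiquitin promoter. ZH11-N is the untransformed parent under normal watering, and ZH11-D is the parent after water had been withheld for 10 to 15 days from the 4-leaf stage. Both genotypes shared pots, with 10 plants of each, and chromatin came from 3 g of shoots of 4-leaf seedlings, fixed in 1% formaldehyde and sheared to 200 to 500 bp. A rabbit antibody raised against full-length SNAC1 was used in every group, so that the parent's own SNAC1 protein could be precipitated as well. Each of these 3 groups had 3 immunoprecipitated libraries. The replicates are stated to be independent, but the plants behind each library are not, so part of the spread between libraries may be technical. OE-19 is a single transgenic line, and droughted OE-19 has no ChIP-Seq libraries analysed here.

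SNAC1 is a transcription factor of the NAC family, which is found in plants and includes many regulators of growth and stress responses. Its gene is induced by drought in rice, and its overexpression is known to improve survival under drought. In ChIP-Seq, fragments held by the antibody pile up where the protein sits on DNA, and a broader or taller pile gives more reads in the interval drawn around it.

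The overexpression was seen first in the RNA of the same groups. SNAC1 (LOC_Os03g60080) had 764, 996 and 781 FPKM (fragments per kilobase of transcript, scaled to the mapped fragments of the library) in the 3 SNAC1-N libraries, against 27.2, 44.8 and 39.7 FPKM in ZH11-N and 329, 530 and 430 FPKM in ZH11-D. The SNAC1-N and ZH11-N values did not overlap, and ZH11-D lay between them. Of the marker genes looked up in the RNA, 3 leaf genes (2 for the small subunit of Rubisco and 1 for a light-harvesting protein) ranged from 158 to 22580 FPKM over the 12 libraries. The root gene RCc3 was at most 0.536 FPKM, while OsLsi1, a silicon transporter known from roots, had 8.36 to 16.4 FPKM in every group.

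Over all intervals of the table the recovered counts summed to 5111091, 1109002 and 3397971 in SNAC1-N and to 2028355, 1775254 and 3015609 in ZH11-N. The floor was not equally frequent in these libraries. It held 4.46%, 12.98% and 1.92% of all intervals in ZH11-N replicates 1, 2 and 3, and 1.67%, 7.60% and 2.21% in SNAC1-N. ZH11-N2, the ZH11-N library with the lowest sum, was thus at the floor in 2191 intervals and ZH11-N3, the one with the highest, in 325. The deposited signal, which is the count divided by one factor per library, is used below unless counts are named.

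In SNAC1-N the 133 intervals were weaker than the typical interval. Their median signal was 23.4 in SNAC1-N1, 21 in SNAC1-N2 and 28.8 in SNAC1-N3, and the medians of all intervals were 47.2, 37 and 45.8. The 3 SNAC1-N libraries also disagreed more on them. The coefficient of variation among SNAC1-N libraries had a median of 48.8% here and 34.5% over all intervals, and in 59 of the 133 the highest SNAC1-N signal was more than 3 times the lowest. In counts, 96 of the 133 intervals had at least 10 reads in every SNAC1-N library, 5 had fewer than 10 in every one, and 8 had a library at only 2 reads. No test was made of these differences, since the SNAC1-N values entered the choice.

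**Figure D1:**
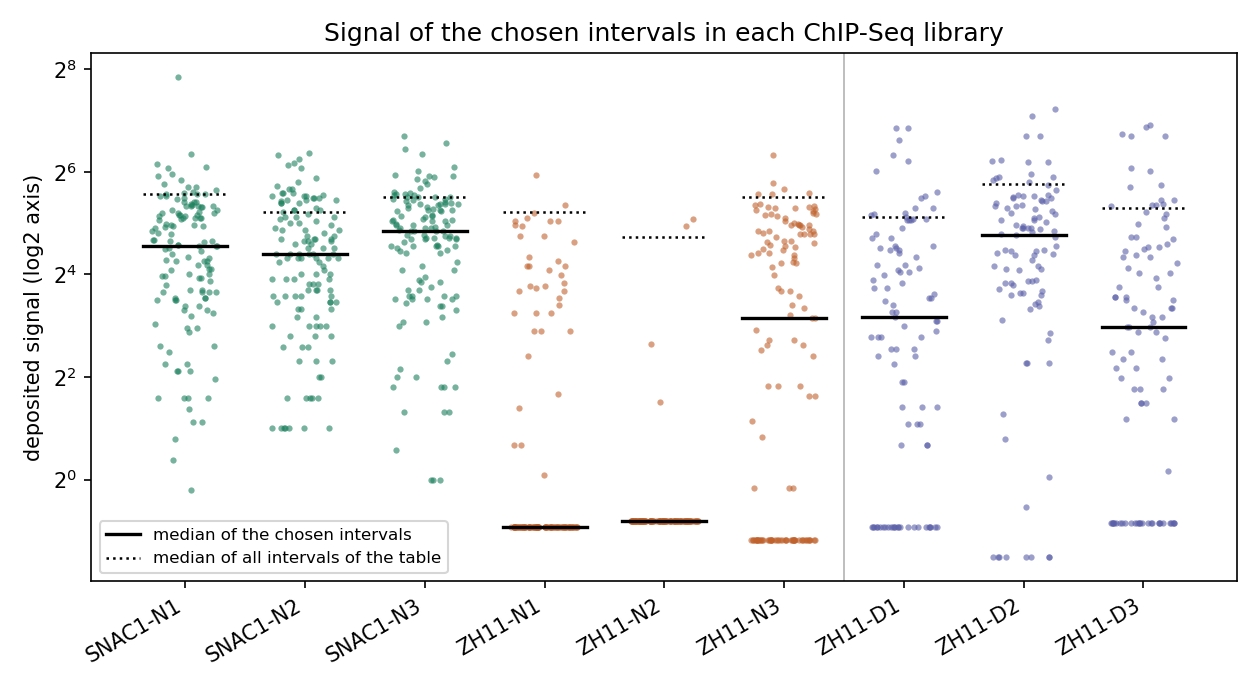
Deposited signal (log2 axis) of the 133 intervals in the SNAC1-N and ZH11-N libraries and, right of the line, of the 101 found in the table of ZH11-D and SNAC1-N. Points are intervals, solid bars their medians and dotted bars the medians of all intervals of the table. The ZH11-N1 and ZH11-N2 medians lie at the floor, the ZH11-N3 median is 8.86, and the ZH11-D medians are 9.04, 27.4 and 7.90.

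The ZH11-N libraries took part in the floor to unequal extents. ZH11-N2 was at the floor in 129 of the 133 intervals (97.0%), ZH11-N1 in 94 (70.7%) and ZH11-N3 in 48 (36.1%). Correspondingly the ZH11-N library that stayed above the floor was ZH11-N3 in 85 intervals, ZH11-N1 in 39 and ZH11-N2 in 4. The summed count, used here for depth, moved with this order. It was highest in ZH11-N3 and lowest in ZH11-N2, and the part of depth in the result was not tested. With ZH11-N2 left out, so that both other ZH11-N libraries had to be at the floor, 9 intervals remained under the rule, against 44 without ZH11-N1 and 90 without ZH11-N3. A tissue sample is a mixture, and in it a site bound in fewer cells and a site bound less in each cell cannot be told apart.

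Where 1 ZH11-N library was above the floor, its signal was mostly of the same order as the SNAC1-N signal. Over the 128 intervals that value had a median of 21.2, and its ratio to the median SNAC1-N signal of the same interval had a median of 0.845, with quartiles of 0.519 and 1.27. It lay within the range of the 3 SNAC1-N libraries in 73 intervals, above all of them in 20 and below all of them in 35. The ratio was at least 1 in 49 intervals and under 0.25 in 12. In the 85 intervals where ZH11-N3 was the library with signal, its median was 24.8 and the median SNAC1-N signal 25.6. In the 39 where it was ZH11-N1 these medians were 14.3 and 23.4. One example is chr3:33344550-33345579, which had 80.59 in ZH11-N3, above its 41.58, 42 and 33.32 in the SNAC1-N libraries, and was at the floor in ZH11-N1 and ZH11-N2.

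**Figure D2:**
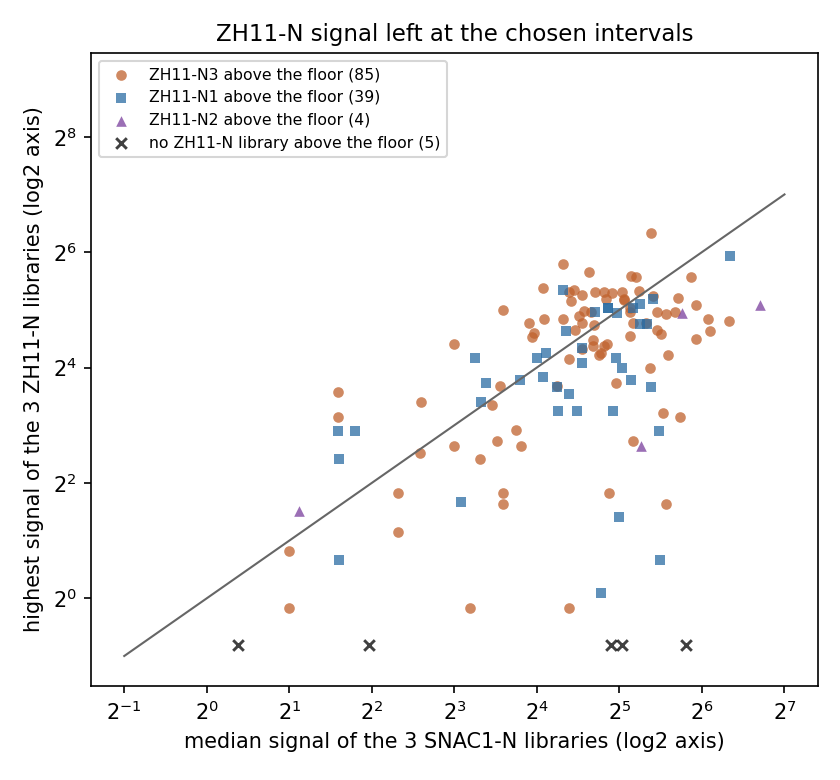
Highest ZH11-N signal against the median SNAC1-N signal (both log2 axes) for the 133 intervals, marked by the ZH11-N library above the floor; the line marks equal values. Most points lie near the line, 49 of the 128 at or above it, and the 5 crosses at the bottom are the intervals at the floor in all 3 ZH11-N libraries.

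The 8 intervals whose lowest SNAC1-N value was highest are the ones in which the SNAC1-N signal was firmest. chr2:19133068-19134630 had 71.47, 80 and 93.98 in SNAC1-N1, SNAC1-N2 and SNAC1-N3, with 27.9 in ZH11-N3 and the floor in the other two ZH11-N libraries. chr1:24125085-24126064 had 67.14, 67 and 87.02, with 28.78 in ZH11-N3. At both the single ZH11-N value was well above the floor and below every SNAC1-N value. chr2:4688819-4689687 had 47.21, 56 and 45.25 in SNAC1-N and only 3.1 in ZH11-N3. chr12:949500-950322 had 60.64, 53 and 42.76, with 8.86 in ZH11-N3. At the latter interval the ZH11-N signal was not missing within the limits of the ZH11 table described below (949950 to 950624), where the 3 libraries had 1.87, 28 and 30.44, all above the floor. chr10:12897231-12897849 had 57.61, 48 and 41.27, with 18.6 in ZH11-N3. chr2:19134867-19135409 had 48.08, 44 and 38.29, with 31 in ZH11-N3, and it lies 236 bp from the first interval named. chr2:10088524-10089787 differed from the others in its remaining library, with 81.86, 45 and 81.05 in SNAC1-N and 60.97 in ZH11-N1, which lay inside the SNAC1-N range. The eighth, chr10:7620581-7621241, was at the floor in all 3 ZH11-N libraries and had 36.82, 76 and 56.19 in SNAC1-N.

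The 5 intervals at the floor in all 3 ZH11-N libraries are the only ones that the name detected only in the overexpressor fits under normal watering. chr10:7620581-7621241 held 85, 76 and 113 reads in SNAC1-N. Against these stood at most 1 counted read in each ZH11-N library. chr3:21495663-21496370 had 48.94, 13 and 32.82, and chr5:7043541-7044116 had 34.22, 27 and 29.83. chr12:13400006-13400353 was weaker, with 3.9, 15 and 2.49. The fifth, chr6:4954648-4955264, had 3, 2 and 2 reads in SNAC1-N, close to the floor itself. No fold is given for these intervals, because a count at the floor does not fix the level beneath it.

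At the edge of the rule the counts on both sides were of 1 or 2 reads. Just inside it were chr3:30862148-30862675 with a SNAC1-N signal of 0.87, 2 and 3.48, chr2:3811476-3812635 with 4.33, 2 and 0.99, and chr6:4954648-4955264 with 1.3, 2 and 0.99. Just outside it was chr6:29626229-29626737, with 42.01, 38 and 47.24 in SNAC1-N and 32.32 in ZH11-N3, which missed the rule because its ZH11-N1 value of 1.06 is 2 reads. Another, chr12:9290719-9291516, had 47.64 and 49.23 in SNAC1-N1 and SNAC1-N3 but the floor of 1 in SNAC1-N2. In all, 1899 intervals were above the floor in every SNAC1-N library with exactly 1 ZH11-N library at the floor, and in 21 of them another ZH11-N library had 2 reads. The rule with the genotypes exchanged gave 35 intervals (0.207% of 16886), of which 3 were at the floor in all 3 SNAC1-N libraries.

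The 133 intervals were narrow. Width was not itself used by the rule, but the rule is set on counts, and a narrower interval can gather fewer reads. Width is therefore not independent of the choice. Their median width was 560 bp, with quartiles of 442 and 689 bp, against 843 bp over all intervals and 940 bp over the 13409 intervals above the floor in all 6 libraries. Only 18 of the 133 were wider than 843 bp. With all intervals ranked by width and cut into 5 classes of nearly equal size, 62 of 3384 (1.83%) were chosen in the narrowest class (279 to 549 bp) and 2 of 3373 (0.0593%) in the widest (from 1519 bp). Per kilobase the levels were close, as the median SNAC1-N signal was 50.5 per kb here and 52.6 per kb over all intervals, and 57 of the 133 lay above the latter value. By the mean signal of the 6 libraries, 108 of the 133 fell in the lowest of 5 such classes and 0 in the highest, but the floor values of the rule enter that mean. The 35 intervals of the exchanged rule were narrow as well, with a median of 518 bp.

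**Figure D3:**
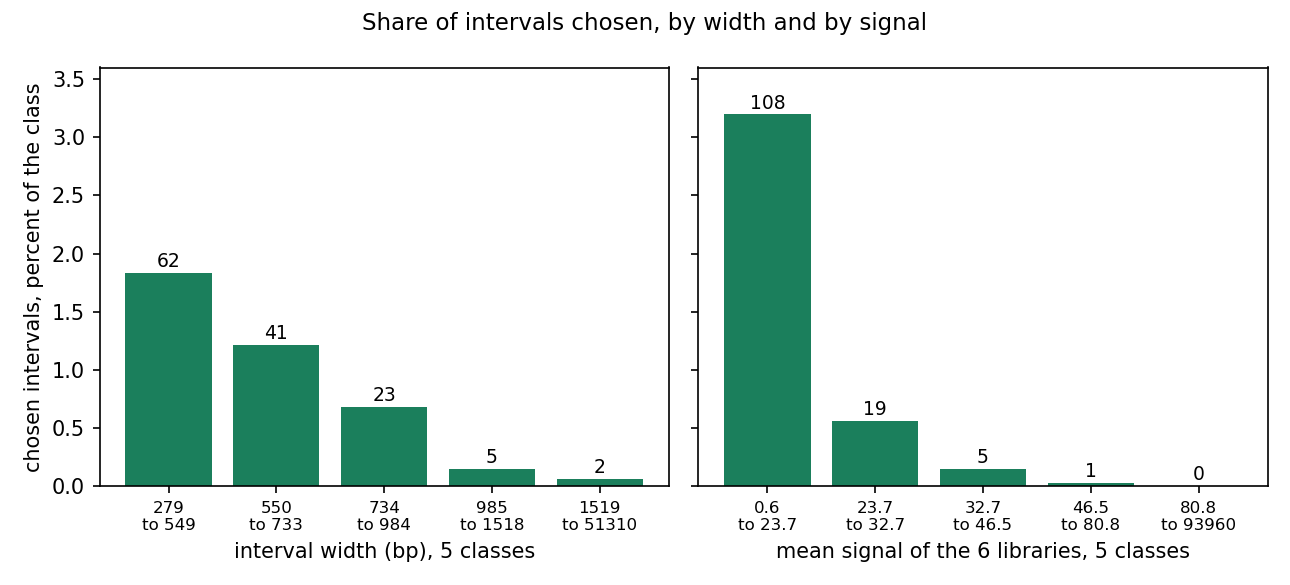
Percent of intervals chosen within each of 5 classes of all 16886 intervals, ranked by width (left) and by the mean signal of the 6 libraries (right); numbers on the bars are chosen intervals. The share falls from 1.83% in the narrowest class to 0.0593% in the widest, and from 3.20% in the weakest class to 0% in the strongest.

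The 5 widest of the 133 did not share a strong signal. chr12:20675088-20678045, at 2958 bp the widest, had 2.17, 3 and 0.99 in SNAC1-N and 2.84 in ZH11-N2, so that no library of either group had more than 5 reads. chr2:19133068-19134630 (1563 bp) and chr2:10088524-10089787 (1264 bp) are among the strongest above. chr1:32280217-32281508 (1292 bp) had 6.06, 15 and 13.43 in SNAC1-N and 7.53 in ZH11-N3. chr2:3811476-3812635 (1160 bp) is at the edge of the rule.

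They were spread over the 12 chromosomes. Chromosome 1 held 31, chromosome 3 held 20, chromosome 2 held 17, chromosome 6 held 12 and chromosome 12 held 11. Chromosome 12 had the highest share of its own intervals, 11 of 512 (2.15%), and chromosome 11 the lowest, 1 of 379 (0.264%). No 100 kb stretch held more than 2 of them, and 12 stretches held 2. The closest pairs were chr1:24125085-24126064 with its neighbour 401 bp away and the pair on chromosome 2 named above. The median gap to the nearest other interval of the table was 4130 bp, against 2048 bp over all intervals. Neither the neighbouring genes nor the DNA sequence of the intervals was read here, as coordinates are on MSU 7.0 and no sequence or gene positions of that build were used.

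The ZH11-D libraries were not used by the rule and show the same sites in droughted plants of the parent. Of the 133 intervals, 101 (75.9%) overlapped an interval of the table of ZH11-D and SNAC1-N by at least 1 bp, compared with 83.9% of all 16886. The limits were identical for 43. Among the 101, 63 (62.4%) were above the floor in all 3 ZH11-D libraries, 22 in 2, 9 in 1 and 7 (6.93%) in none. Over all 21263 intervals of that table these shares were 88.7% for all 3 and 1.17% for none. Within the limits of that table, most of the 101 thus had counted reads above the floor in every droughted ZH11 library. The share was lower than over the whole table, and the intervals outside the 101 have no ZH11-D value there. Apart from the 43, those limits differ from the ones that chose the intervals. For example, chr6:20853434-20854303 meets an interval from 20854275 to 20854766. The 63 therefore does not show how often the chosen limits themselves were above the floor. Intervals are not replicates, and no test of that difference was made.

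**Figure D4:**
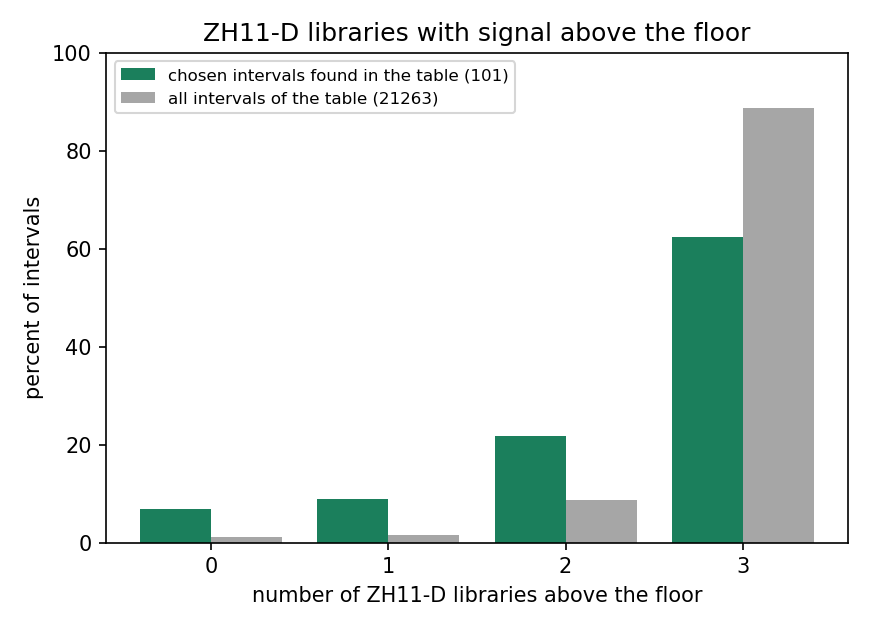
Percent of intervals by the number of ZH11-D libraries above the floor, for the 101 chosen intervals found in the table of ZH11-D and SNAC1-N (green) and all 21263 intervals of it (grey). All 3 libraries were above the floor in 62.4% of the chosen intervals and 88.7% of all, and none in 6.93% and 1.17%.

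The ZH11-D libraries also differed among themselves. At the 101 intervals the median signal was 9.04 in ZH11-D1, 27.4 in ZH11-D2 and 7.90 in ZH11-D3, against 34.5, 54.0 and 39.5 over all intervals of the table. ZH11-D1 was at the floor in 25 of them, ZH11-D3 in 28 and ZH11-D2 in 8. Of the 9 intervals with a single ZH11-D library above the floor, that library was ZH11-D2 in 8. ZH11-D2 had the highest summed count of the group, 5422546, against 2388229 in ZH11-D1 and 2653939 in ZH11-D3. As in ZH11-N, the floor was thus least frequent in the library with the highest sum. Between ZH11-D1 and ZH11-D3 the order of the sums was the other way, as ZH11-D1 had the lower sum and fewer intervals at the floor. The factor that divides the counts was 1.88 in ZH11-D1, 2.89 in ZH11-D2 and 1.77 in ZH11-D3. By that factor ZH11-D3, with the most intervals at the floor, was the lowest. The part of depth was not tested.

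Between ZH11-D and SNAC1-N, limma on log2 of the signal was fitted to all 21263 intervals (two-sided, Benjamini-Hochberg adjustment). It called 651 intervals at an adjusted p under 0.05, 614 higher in ZH11-D (2.89% of all) and 37 higher in SNAC1-N (0.174%). The SNAC1-N libraries are the ones that had to be above the floor for an interval to be chosen, so only the ZH11-D side of this comparison is free of the choice. For the chosen intervals the fit is therefore given as a description, and neither the calls nor their direction is a test of them. Of the 101 intervals, 4 were among the called, all higher in SNAC1-N and 0 higher in ZH11-D. The median log2 difference, ZH11-D minus SNAC1-N, was -1.16 at the 101 intervals and 0.19 over the whole table. Scaling each library by its median ratio moved the latter to -0.04 and the former to -1.40. Every ZH11-D library lay below every SNAC1-N library in 21 of the 101 intervals (5.54% of all intervals), above in 7 (21.0% of all), and the groups overlapped in the other 73.

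The 4 called intervals were at the floor in all 3 ZH11-D libraries. chr10:7620581-7621241 had the largest difference, a fitted log2 difference of -6.84 ± 1.19 (SE). chr8:21815885-21816320 had 31.19, 34 and 26.85 in SNAC1-N, and a log2 difference of -6.02 ± 1.13 (SE). Under normal watering it had 13.28 in ZH11-N3 and so was not without signal in the parent. chr3:21495663-21496370 gave -5.87 ± 1.17 (SE). chr6:12526641-12526995 had 19.06, 14 and 5.47 in SNAC1-N and 6.2 in ZH11-N3, and gave -4.59 ± 1.04 (SE). A fitted difference at the floor depends on the floor's value and is no bound. None of the 4 calls held when only intervals with a mean count of at least 10 were fitted, or without any one of ZH11-D1, ZH11-D2, ZH11-D3 and SNAC1-N3. edgeR on the recovered counts called these 4 and chr1:24125085-24126064, all higher in SNAC1-N.

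The other 3 intervals at the floor in all 3 ZH11-D libraries were chr12:13400006-13400353, chr12:20675088-20678045 and chr6:4954648-4955264, none of which was among the called. Together 4 of the intervals were at the floor in all 6 ZH11 libraries, normal and drought, while those without an interval in the drought table have no ZH11-D value there. They were chr10:7620581-7621241, chr3:21495663-21496370, chr12:13400006-13400353 and chr6:4954648-4955264. The first 2 had more than 10 reads in every SNAC1-N library, and the others had fewer in at least 1. chr5:7043541-7044116, at the floor in all 3 ZH11-N libraries, was above it in all 3 ZH11-D libraries.

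At the other end, 5 intervals had the highest mean ZH11-D signal. chr12:991549-991970 lies in a wider interval of the drought table, from 989564 to 992146, with 115.35, 149.99 and 116.83 in ZH11-D and 86.63, 106 and 46.24 in SNAC1-N. chr2:26933106-26933664 lies in one from 26932201 to 26933742, with 97.81, 135.44 and 120.21 in ZH11-D against 57.61, 47 and 49.23 in SNAC1-N. Its groups did not overlap, with a log2 difference of 1.19 ± 0.28 (SE). It was not among the called (limma adjusted p of 0.0504), and the fit is a description here as above. chr1:42267554-42267919 meets one from 42267590 to 42269419, with 116.42, 103.22 and 106.1 in ZH11-D against 89.22, 82 and 41.77 in SNAC1-N. There too the groups did not overlap. chr8:27237513-27238201 lies in one from 27236722 to 27238261, with 73.89, 104.26 and 103.28 in ZH11-D against 82.29, 58 and 97.96 in SNAC1-N. In that one the groups overlapped. Counts of the drought table are made within its own limits, which reach beyond the chosen ones at these 5 intervals. Its SNAC1-N values can therefore differ from those of the table that chose the intervals. Its ZH11-D signal may lie outside the chosen limits. On the scale of the ZH11 table described below, ZH11-N had 89.73, 88 and 191.25 around chr1:42267554-42267919. Around chr8:27237513-27238201 it had 77.58, 29 and 166.27, and around chr2:26933106-26933664 the floor of 0.93, 24 and 100.7. chr10:12897231-12897849, one of the 8 firmest in SNAC1-N, had 80.27, 75.51 and 103.28 in ZH11-D against 63.24, 46 and 46.24 in SNAC1-N. These were counted from 12897023 to 12897849. At this interval the ZH11-D values were all above the SNAC1-N values, although ZH11-N had been at the floor in ZH11-N1 and ZH11-N2.

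In the table built from ZH11-D and ZH11-N, without SNAC1-N, 53 of the 133 intervals (39.8%) had an overlapping interval, compared with 84.8% of all 16886. In both other tables there were 51, in the drought and SNAC1-N table alone 50, in the ZH11 table alone 2 and in neither 30 (22.6%, against 8.14% of all intervals). The ZH11-N floor did not always hold within other limits of the same site. Counted within the limits of the ZH11 table, 33 of the 53 kept at least 2 ZH11-N libraries at the floor and 20 did not. Identical limits count the same reads and so keep the floor, and 6 of the 53 had them, none among these 20. The median width of those 20 was 557 bp in the table that chose them and 764 bp in the ZH11 table, where 13 of the 20 were wider. For the 33 these medians were 616 and 647 bp, and 15 of the 33 were wider. At chr12:991549-991970 ZH11-N1 and ZH11-N2 were at the floor within 422 bp, whereas the wider interval around it had 69.17, 62 and 192.81 in ZH11-N on the scale of the ZH11 table.

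At the 53 intervals the median signals, on the scale of the ZH11 table, were 0.93, 1 and 30.4 in ZH11-N1, ZH11-N2 and ZH11-N3 and 30.0, 62.3 and 28.9 in ZH11-D. Low ZH11-N values were fixed by the choice of the intervals, so no weight attaches to the direction. limma called 41 of all 21162 intervals higher in ZH11-D (0.194%) and 0 higher in ZH11-N (0%), and 0 of the 53 in either direction, with 14 of the 53 at an unadjusted p under 0.05, as were 3401 of all intervals (16.1%). edgeR also called 0 of the 53, with 3 at an unadjusted p under 0.05, as were 2929 of all intervals (13.8%).

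For the contrast that the rule used, SNAC1-N against ZH11-N, no interval passed in either direction. limma called 0 of 16886 higher in SNAC1-N (0%) and 0 higher in ZH11-N (0%), with 573 at an unadjusted p under 0.05. edgeR on the recovered counts also called 0, with 647 at an unadjusted p under 0.05. These counts are over the whole table, and nothing is read from them about the 133 intervals.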

How the data were processed

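ChIP-Seq with an anti-SNAC1 antibody was compared in SNAC1-N, ZH11-N and ZH11-D (3 immunoprecipitated libraries each), and RNA-Seq values served only to read SNAC1 and the marker genes. The tools named in the submitters' processing notes include Bowtie2, MACS2 and DiffBind, with no versions, and the reads were mapped to MSU 7.0. The authors deposited 3 tables of intervals, each for a pair of groups. The deposited signal equals a whole count of at least 1 over a constant of the library. That constant was 1 for SNAC1-N2 (for ZH11-N2 where SNAC1-N was not included), whose deposited values are counts. Counts were recovered from the signal, and 100% were whole within 0.1. Whether input reads were subtracted is not given in the sources used here, so counts may be net of input, and a count of 1 need not mean 1 read in the raw data. The authors deposited RNA values as FPKM. The authors' own mean, fold, p-value and FDR columns were not used. 0 columns of samples were left unused.

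The intervals, lists and tests were chosen with earlier results of these data known. Named intervals were the 8 with the highest lowest SNAC1-N value, up to 3 on each side of the threshold, the 5 widest, the 5 highest and the 5 lowest (7 tied) in mean ZH11-D signal, and the closest stretch. chr3:33344550-33345579 and chr5:7043541-7044116 were chosen after their values were seen. limma (trend) on log2 of the signal, with no pseudocount or block, was fitted to each whole table with R 4.3.3, and edgeR's quasi-likelihood test on recovered counts was an alternative. The fits were also run on simulated data with planted changes in 200 intervals. Those data had no floor, so that run does not bear on intervals at the floor. Other alternatives changed the scaling, the filter, the replicate block, the overlap and the libraries included. Genes, promoters and motifs under the intervals were not analysed here, because no MSU 7.0 genome or annotation was used. The limma standard errors come from the spread among libraries, 3 in each group. The summed counts were 1109002 to 5494104 per library and table.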

Additional observations from a re-analysis of the deposited data

How the results depend on the processing

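The number of intervals under the rule was 133. It was 5 when all 3 ZH11-N libraries had to be at the floor, and 9 to 175 when 1 of the 6 libraries was left out (9 without ZH11-N2, 44 without ZH11-N1). Allowing up to 3 reads in place of the floor, an alternative chosen after seeing the data, gave 177, and a count of at least 10 in every SNAC1-N library gave 96. The number above the floor in all 3 ZH11-D libraries was 63, it was 47 with at least 10 reads in each, and it was 63 to 75 with 1 ZH11-D library left out. Requiring 0.5 of the shorter interval to be shared gave 100 in place of 101. Between ZH11-D and SNAC1-N, 4 of the 101 were called. The number was 0 with a replicate block, 0 with a mean count of at least 10, and 0 to 4 with 1 library left out (0 without ZH11-D1, ZH11-D2, ZH11-D3 or SNAC1-N3). Median ratio scaling called 4 and edgeR 5, of which 3 and 4 were shared with the original 4. Without SNAC1-N1, 3 of the original 4 and 1 interval higher in ZH11-D were called. Between ZH11-D and ZH11-N, 0 of the 53 intervals were called, 1 with the replicate block, 0 to 2 with 1 library left out (2 without ZH11-N3) and 0 under the other settings. For 13 named intervals the log2 difference between ZH11-D and SNAC1-N was recomputed under each setting that kept them, and none changed sign. For 7 of them, at the floor in all 3 ZH11-D libraries and above it in every SNAC1-N library, the sign was fixed by the choice. Another 5 were chosen for their high ZH11-D signal. Among these, chr8:27237513-27238201 went from 0.256 to 0.0219 with median ratio scaling. Deviations of libraries with the same replicate number correlated at -0.073 to 0.0582 in the 3 tables. With 3 libraries per group this cannot show whether the libraries were paired, and the block is given as an alternative only. Over the whole drought table the block gave 332 calls in place of 651. Median ratio scaling gave 443 (329 of them with the higher signal in ZH11-D and 114 in SNAC1-N) and edgeR 507 (403 and 104). Over the whole ZH11 table the same settings gave more calls than the main fit. The block gave 541 in place of 41, of which 485 were higher under drought and 56 higher under normal watering. Median ratio scaling gave 66 (37 and 29) and edgeR 52 (34 and 18). The cause of these changes was not tested, beyond the fewer libraries or intervals that leaving out and filtering leave. The planned tests of genes beside the intervals, the gene lists, the CACG motif and the intervals near SNAC1 were not run, for want of a genome of the build. Depth limits the intervals of few counted reads, where 1 counted read decides the floor, and counts may be net of input.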

Other observations

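In the table of ZH11-D and SNAC1-N, 13 intervals were at the floor in all 3 ZH11-D libraries and above it in all 3 SNAC1-N libraries, and 7 of them overlap the intervals described above. The strongest of the rest was chr3:12932004-12933859, with 155.49, 134 and 103.43 in SNAC1-N. In ZH11-N it had 37.64 and 43.84 in replicates 1 and 3 and the floor in replicate 2, so that it missed the rule by 1 library. chr1:24665320-24665871 had 42.01, 33 and 29.83 in SNAC1-N, with 19.09 and 33.65 in ZH11-N replicates 1 and 3 and again the floor in replicate 2. Both therefore had signal in the parent under normal watering and at most 1 counted read in each droughted library. With ZH11-D in place of ZH11-N, the rule took 196 of the 21263 intervals of that table, and 16 of them overlap the 133, of which 101 are found there. Both rules require the same SNAC1-N libraries to be above the floor, so part of this overlap is built in.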
